A study of Mus musculus with 16 samples.

Results

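The 8 wild-type quadriceps libraries, WT 1 to WT 8, are described here as a baseline of mouse thigh muscle: which transcripts make up its polyadenylated RNA, and which genes differ between libraries of one genotype. They were chosen by title alone, as every sample that the submitters named wild type, and are 8 of the 16 libraries of a study of muscle NAD depletion. The other 8 libraries came from mice with a knockout of Nampt restricted to skeletal muscle, and are used only to ask whether the same genes also vary there. All 8 wild-type samples carry the tissue label skeletal muscle and the genotype label WT, and the protocol names the quadriceps as the source of the RNA. The labels and protocols used here do not state age, sex, strain, litter, time of sampling or feeding state, nor whether the controls carry a floxed allele or a Cre transgene. The labels do not say that each library came from a separate animal, so every SD and p-value below describes the spread between these libraries, which may in part be technical.

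Skeletal muscle is built of long multinucleate fibres whose sarcomeres shorten when myosin motors pull on actin filaments, under the control of calcium and of the troponin and tropomyosin proteins on the thin filament. Most of these proteins exist in slow and fast forms encoded by separate genes, and the myosin heavy chains name the fibre types: Myh7 (slow, type I), Myh2 (IIa), Myh1 (IIx) and Myh4 (IIb, the fastest). A piece of whole muscle also holds vessels, nerve, tendon, fat, connective tissue, blood and resident immune cells, and in such bulk samples fewer cells of a type and less RNA per cell cannot be told apart.

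The libraries held between 20133721 (WT 5) and 51881239 (WT 3) estimated counts, with 29556959 ± 10605145 (SD, n = 8). The RNA integrity number (RIN), a scale of how intact the RNA is, ran from 8.2 in WT 8 to 8.7 in WT 3 and WT 5, and WT 8 stood apart from the other 7, which were at 8.5 or above. Levels are given as CPM, counts scaled to the same total in every library, with TMM factors that align the bulk of genes between libraries. Of 45706 genes in the table, 12202 reached a mean of 1 CPM and were examined, and the genes below that level held 0.174% of all counts. Transcripts of the Y-linked genes Ddx3y, Uty, Kdm5d and Eif2s3y were present in all 8 libraries, Ddx3y at 32.0 to 47.5 CPM, while Xist, the RNA of the inactive X chromosome, did not exceed 0.160 CPM in any.

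A small set of genes, led by those of the contractile apparatus and the mitochondrion, made up most of the RNA. The 10 highest genes held 27.9 ± 0.689% of the counts (SD, n = 8), the 100 highest 57.2 ± 0.908% and the 1000 highest 78.1 ± 0.625%. It took 47.0 ± 5.24 genes to reach 50% of the counts, with 42 in WT 8 and 59 in WT 3. WT 3 was the lowest library on all 3 shares and WT 8 the highest on the shares of the 100 and 1000 highest genes. The 90 genes with a mean of at least 1000 CPM together held 56.2% of the CPM. When counts were divided by transcript length, so that long genes no longer weigh more, the 10 highest genes held 30.6 ± 1.04% and 21.9 ± 0.991 genes reached 50%.

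Myh4 (chr11:67238029-67260446, GRCm38, plus strand), the fastest of the adult myosin heavy chains, was the highest gene by counts. It stood at 67797 CPM in the lowest library, 72723 at the median and 83280 in the highest, a mean of 74063 ± 5182 CPM (SD, n = 8), or 7.40% of the total. The next by counts were mt-Co1 (48949 ± 4362 CPM), a mitochondrially encoded subunit of cytochrome oxidase, Atp2a1 (29872 ± 1896), the fast-fibre calcium pump, and Acta1 (25309 ± 3255), skeletal muscle actin. Per transcript length the order was different: mt-Co1 led with 60909 ± 3588 TPM (the CPM scale after division by transcript length), followed by mt-Nd1 (34931 ± 1514), Acta1 (33649 ± 3827), mt-Cytb (32381 ± 1527), Tnnt3 (27046 ± 1388), the fast troponin T, and mt-Atp6 (26322 ± 3159), with Myh4 (23719 ± 1667) in place 7. In that order the mean of Acta1 lay closer to those of its neighbours mt-Nd1 and mt-Cytb than its own SD. The mean of mt-Atp6 likewise lay closer to those of Tnnt3 and Myh4 than its own SD. The means alone do not settle the order of these neighbours, and their order within each library was not compared. Ttn, the giant spring protein of the sarcomere, was 13th by counts (11612 ± 2301 CPM) and 365th per length, since its longest annotated transcript has 106824 bases. The mitochondrially encoded mRNAs took 15.2 ± 1.04% of the counts, from 13.9% in WT 3 to 17.2% in WT 1, and nuclear protein-coding genes took 80.5 ± 1.13%. Gm28661, Gm28437 and Gm10925, annotated pseudogenes on chromosome 1 that resemble mitochondrial genes, appeared among the 20 highest genes per length. Their levels are uncertain, because reads can be shared between such copies and the mitochondrial genome.

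**Figure D1:**
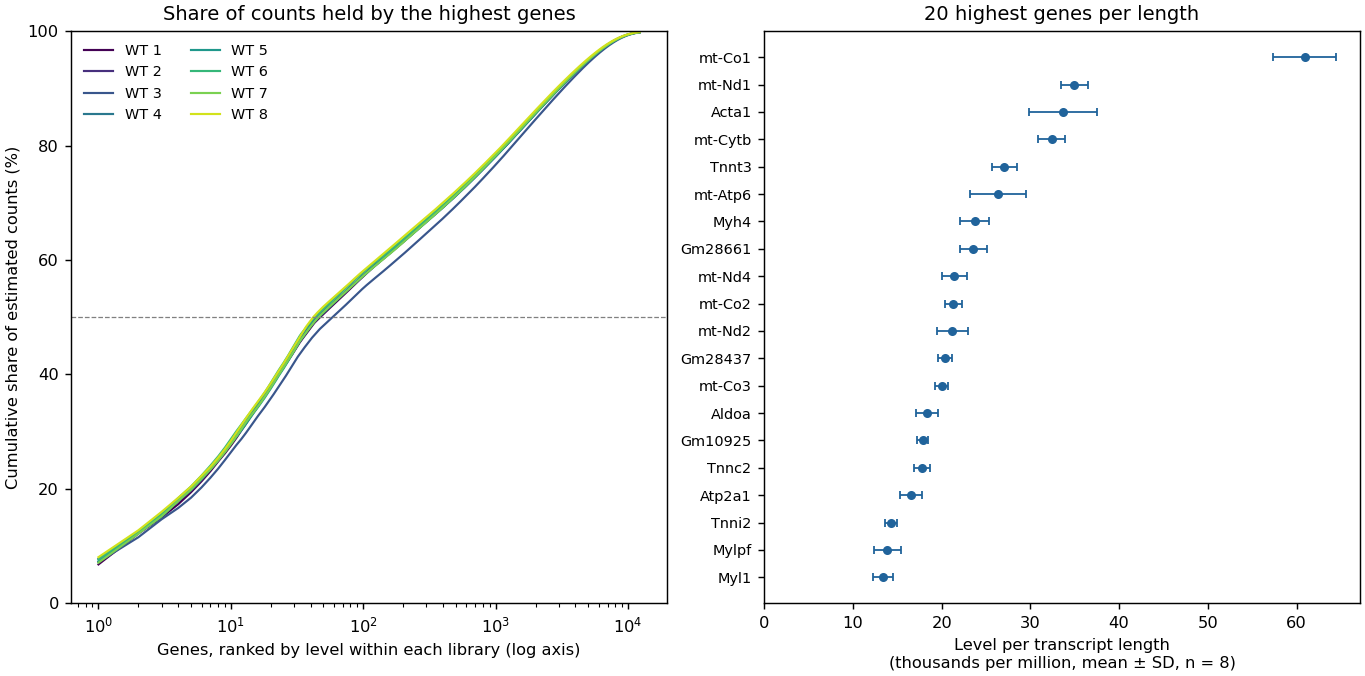
Left, cumulative share of estimated counts (%) against gene rank on a log axis, 1 line per library, with a dashed line at 50%; 7 lines lie together and WT 3 runs below them. Right, the 20 genes highest per transcript length (in 1000 TPM; points are means and bars SD, n = 8), led by mt-Co1.

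In the families compared here, the contractile mRNAs of these muscles were almost entirely of the fast forms. Myosin-binding protein C was not among them, and its slow form Mybpc1 was not rare by counts beside the fast Mybpc2 (levels given below). Among the 4 adult myosin heavy chain mRNAs, counted per transcript length, Myh4 made up 89.4 ± 1.55% (SD, n = 8), Myh1 7.49 ± 1.05%, Myh2 2.90 ± 0.814% and Myh7 0.227 ± 0.138%. The order of the 4 was the same in all 8 libraries, and neighbouring means lay further apart than their SDs. Slow forms were below 1% of their pair on average for troponin I (Tnni1, 0.199 ± 0.112%), troponin T (Tnnt1, 0.272 ± 0.138%), troponin C (Tnnc1, 0.297 ± 0.183%), the regulatory light chain (Myl2, 0.721 ± 0.378%) and the calcium pump (Atp2a2, 0.448 ± 0.163%). The non-fibre myosin genes were low: the eye-muscle myosin Myh13 was at 7.17 ± 1.80 CPM and the atrial myosin Myh6 at 2.88 ± 1.09 CPM.

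Most genes differed little between the 8 libraries. The median gene had a coefficient of variation of 10.2% and its highest library exceeded its lowest 1.35-fold. Counting error is a part of the spread of low genes. Between 1 and 10 CPM the median coefficient of variation was 15.0% with 10.0% expected from counting, between 10 and 100 CPM 7.73% with 3.90%, between 100 and 1000 CPM 7.08% with 1.49%, and above 1000 CPM 8.19% with 0.406%. A highest library more than 2-fold above the lowest was found in 1416 genes, 11.6% of those examined, more than 4-fold in 209 and more than 10-fold in 58. To compare genes across levels, the SD of log2(CPM + 0.5) was also divided by the median SD of genes of like level. Of the genes examined, 1192 (9.77%) had at least 2 times that spread, and 665 genes met both measures. The gene lists below were drawn up with earlier results of these data known. Their shares therefore describe these libraries and give no independent support.

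**Figure D2:**
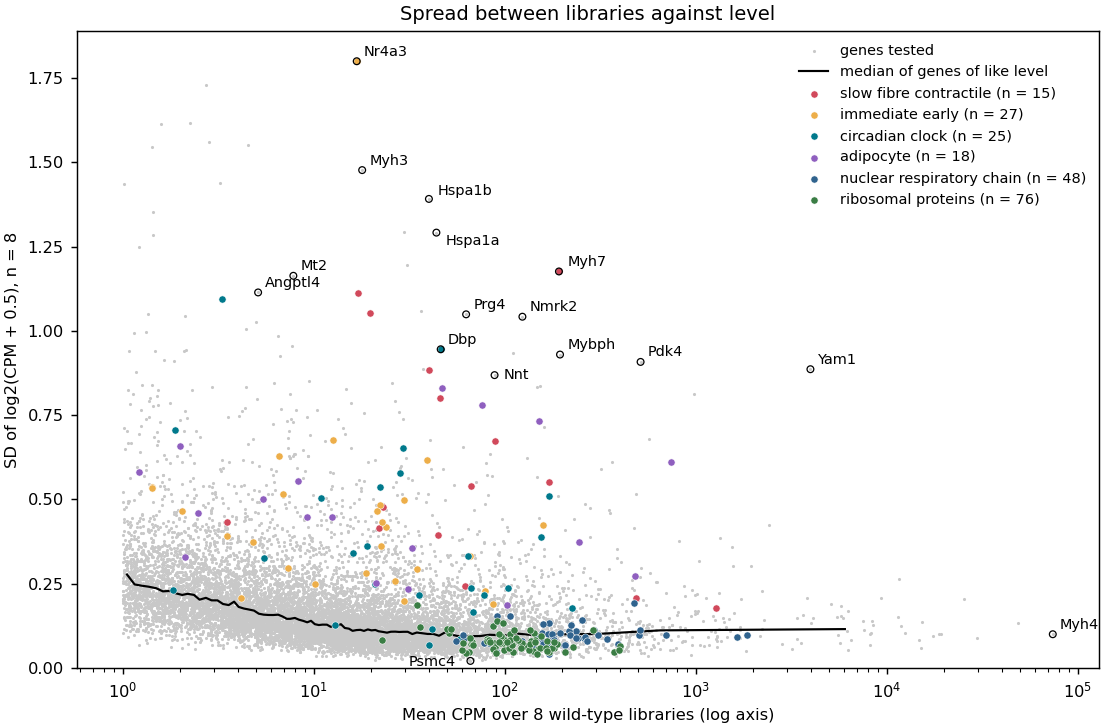
SD of log2(CPM + 0.5) over 8 libraries against mean CPM on a log axis, 1 point per gene, with the median of genes of like level as a line and 6 gene lists in colour. Respiratory chain and ribosomal protein genes lie near or under the line, while slow-fibre, immediate early, clock and fat-cell genes reach far above it, with Nr4a3 at the top.

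Genes of the machinery that every cell carries were steady between the libraries. None of 76 ribosomal protein genes, 31 proteasome genes or 48 nuclear genes of the respiratory chain had a range above 2-fold, against 11.6% of all genes, and their median ranges were 1.16-fold, 1.13-fold and 1.21-fold. Level matters here, since the share was 4.06% of genes at 10 to 100 CPM and 4.72% at 100 to 1000 CPM. The median ratio to the spread of genes of like level was 0.756, 0.569 and 0.888 for the 3 lists, the respiratory chain lying nearest to such genes. The 15 genes of lowest spread among those with at least 50 CPM had SDs of log2(CPM + 0.5) between 0.0205 and 0.0318. They included Psmc4, Psmb4 and Psmb6, subunits of the proteasome, Cul4a and Cops6, parts of the ubiquitin ligase system, and the transcription elongation factor Supt6. Psmc4 was at 64.5 CPM in its lowest library, 66.5 at the median and 67.2 in its highest. Of 20 genes commonly used as reference genes, 0 had a range above 2-fold, but 5, among them Tfrc, Pgk1, Tubb5 and Eef1a1, had at least 2 times the spread of genes of like level. The coefficient of variation was 3.80% for Rplp0, a protein of the large ribosomal subunit, 8.24% for Actb, 10.3% for Gapdh and 18.4% for Pgk1.

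Genes of the fast contractile apparatus, calcium handling and glycolysis had narrow ranges in most cases, but did not stand below genes of like level. The median ratio to the spread of such genes was 1.00 for the fast list and 1.13 for calcium handling. It was 1.13 for glycolysis and glycogen and 1.47 for the scaffold. At least 2 times that spread was found in 1 of 17 fast contractile and 2 of 25 calcium handling genes, against 9.77% of all genes. Of 27 genes of glycolysis and glycogen metabolism 5 had at least 2 times the spread of genes of like level, against 9.77% of all genes, and 2 had a range above 2-fold, against 11.6%: Pfkfb3, which makes the activator of phosphofructokinase, at 126 CPM in WT 3 and 254 to 436 in the others, and Ldhb, the heart form of lactate dehydrogenase, at 79.9 to 176 CPM. Of 17 fast contractile genes 1 did, Mybph. This myosin-binding protein was at 49.1 CPM in its lowest library, 200.4 at the median and 318 in its highest, with WT 1 and WT 5 (90.7 CPM) low and no such pattern in Mybpc2, the fast myosin-binding protein C (5686 to 6900 CPM). Of 25 genes of calcium handling 1 did, the calcium pump inhibitor Sln, which was near the lower limit at 0.992 to 2.96 CPM. Of 22 genes of the sarcomere scaffold 3 did, and 8 had at least 2 times the spread of genes of like level. Among the 3 was Smpx, a small protein of the muscle cytoskeleton encoded on the X chromosome. Smpx was at 33.9 CPM in WT 7 against 127 in WT 8 and 163 to 195 in the other 6 libraries.

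**Figure D3:**
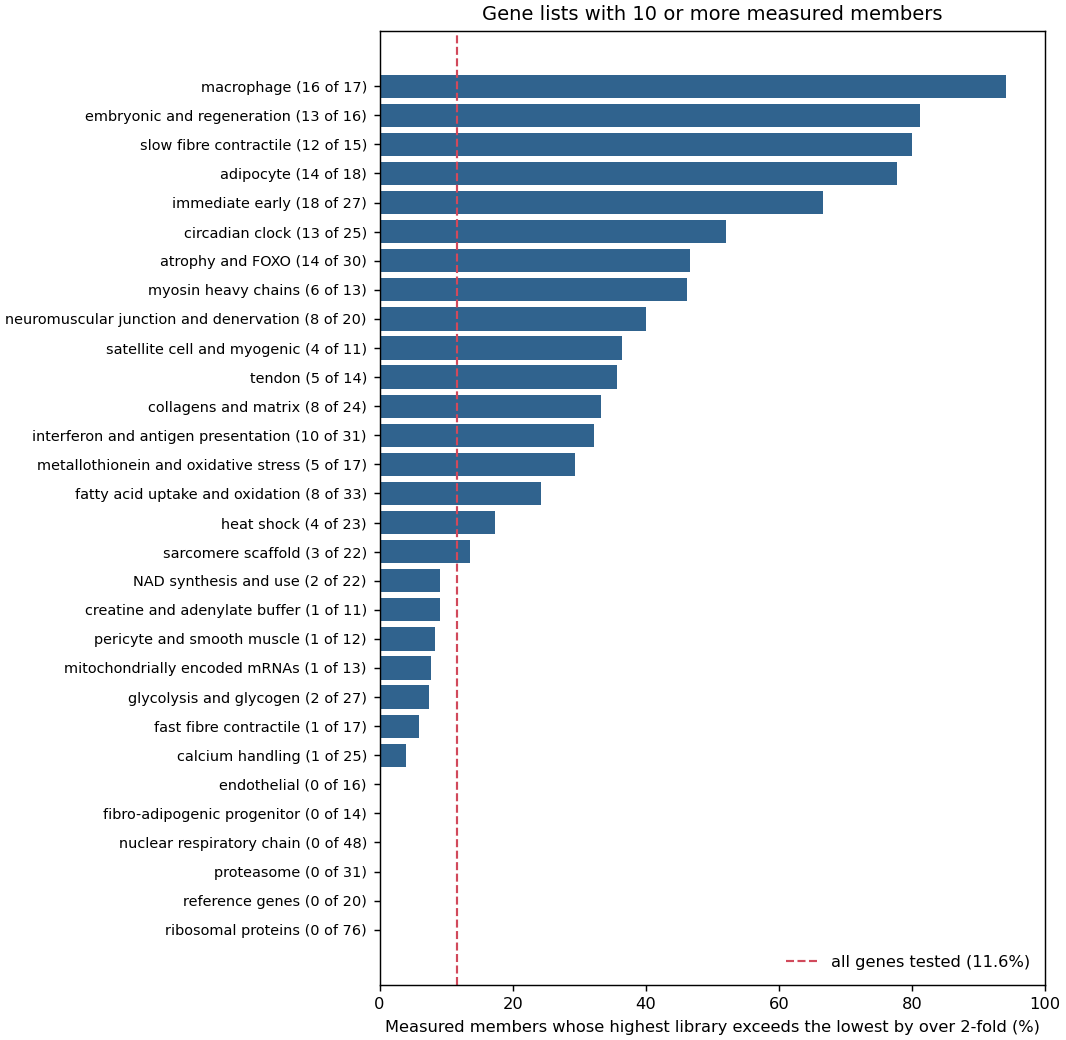
Share of measured members (%) whose highest library exceeded the lowest by over 2-fold, for lists with at least 10 measured members, counts in brackets. The dashed line marks 11.6%, the share among all genes examined; 6 lists are at 0 and macrophage, embryonic, slow-fibre and fat-cell lists are at the top.

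Slow-fibre genes varied together and strongly, in contrast to the fast ones. Of 15 slow contractile genes 12 had a range above 2-fold, against 11.6% of all genes, and 13 had at least 2 times the spread of genes of like level, against 9.77%. The slow myosin Myh7 (chr14:54970684-54994626, minus strand) was at 33.7 CPM in the lowest library, 185 at the median and 344 in the highest, a 10.2-fold range. It was high in WT 5, WT 1 and WT 7, at 293 CPM or more, and low in WT 3 (67.2) and WT 8 (33.7). Tnni1, slow troponin I, ran from 3.21 CPM to 27.0 with a median of 18.9, Myl2, the slow regulatory light chain, from 17.1 to 73.8 with a median of 47.0, and Atp2a2, the slow calcium pump, from 78.2 to 258 with a median of 176. WT 8 was lowest for Tnni1 and Atp2a2, and WT 3 for Myl2. The members with a narrower range were Mybpc1 (1015 to 1487 CPM), the slow myosin-binding protein C, Ankrd2 and Fhl1.

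A slope on Myh7 was fitted for every gene with edgeR's quasi-likelihood test, the slope being the log2 change of a gene for each log2 unit of Myh7. Of 12201 genes 3 passed at an adjusted p under 0.05, all with a positive slope (0.0246%), and 0 with a negative one. Tnnc1, slow troponin C, had a slope of 0.94 (SE 0.04, edgeR adjusted p = 2.34e-05): its CPM ran from 4.29 through a median of 17.9 to 34.3. Tnnt1, slow troponin T, had a slope of 0.75 (SE 0.05, edgeR adjusted p = 0.000634), and Tpm3, the slow tropomyosin, a slope of 0.45 (SE 0.04, edgeR adjusted p = 0.00504). The call for Tpm3 was lost without WT 8 (adjusted p = 0.113), while Tnnc1 and Tnnt1 passed under every alternative run; without WT 7, 6 genes passed. Over the 8 libraries Tnnc1 and Myh7 had a Pearson r of 0.99 (exact permutation p = 7.44e-05, 0.000558 after adjustment over 27 relations) and a Spearman rho of 0.98 (exact permutation p = 0.000397, adjusted 0.00268). Tnnc1 was picked for this because it was called in the same libraries, so these p-values add no independent support. Without WT 3 and WT 8, the 2 libraries farthest from the median of Myh7, r was 0.99. All 14 other genes of the slow list had a positive slope, against 51.3% of all genes, and 10 of the 14 passed without adjustment, against 3.94% of all genes. Fat-cell genes also went with Myh7, with 17 of 18 slopes positive and 8 passing without adjustment; their part in the slow-fibre result was not tested.

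**Figure D4:**
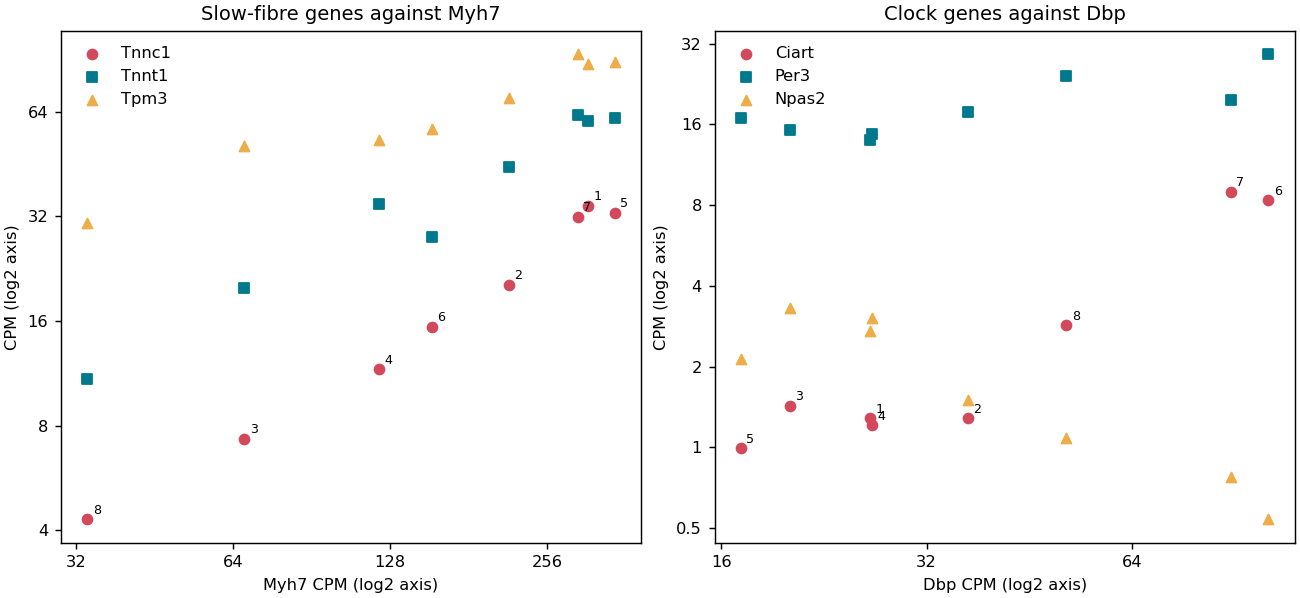
Left, CPM of 3 slow-fibre genes against Myh7, and right, CPM of 3 clock genes against Dbp, 1 point per library, all axes log2, with library numbers beside 1 gene in each panel. Tnnc1, Tnnt1 and Tpm3 climb with Myh7 from WT 8 to WT 5, and in the right panel WT 6 and WT 7 are set apart by high Dbp and Ciart and low Npas2.

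Genes of the embryonic and regenerating muscle programme were high in 1 library. Of 20 genes listed 16 were measured, and 13 had a range above 2-fold, against 11.6% of all genes. At least 2 times the spread of genes of like level was found in 14, against 9.77%. Myh3 (chr11:67078300-67102291, plus strand), the embryonic myosin heavy chain, was at 4.11 CPM in its lowest library, 5.77 at the median and 99.4 in its highest. That highest library was WT 4, and the next, WT 2, was at 12.3. Myl4, the embryonic light chain, was at 24.6 CPM in WT 4 and 2.36 to 6.16 in the others; Myh8, the perinatal myosin, at 94.2 and 27.7 to 42.8; and Tnnt2, the embryonic and cardiac troponin T, at 10.6 and 1.27 to 2.31. Igf2, a fetal growth factor, was at 61.4 CPM in WT 4 and 14.9 to 18.8 in the other 7. Tmem8c, also called myomaker, the protein that lets myoblasts fuse, was at 8.44 CPM in WT 4 and at 1.15 or less elsewhere. The imprinted RNA H19 was instead high in both WT 4 (701 CPM) and WT 7 (695), with 329 to 477 in the others. The pattern was not shared by Pax7, the stem cell factor of muscle, which was at 2.10 to 3.23 CPM with WT 4 at 2.81.

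Genes that respond to loss of innervation were high in the same library. Of 24 genes listed for the neuromuscular junction and denervation 20 were measured, of which 8 had a range above 2-fold, against 11.6% of all genes, and 10 at least 2 times the spread of genes of like level, against 9.77%. Chrna1, the alpha subunit of the muscle acetylcholine receptor, was at 23.8 CPM in WT 4 and 7.59 to 13.3 in the others, Ncam1, a cell adhesion molecule, at 17.4 and 6.19 to 8.08, Musk, the receptor kinase of the synapse, at 19.7 and 7.82 to 11.6, and Myog, the differentiation factor myogenin, at 10.2 and 1.93 to 6.30. Chrng, the fetal receptor subunit, did not reach a mean of 1 CPM but stood at 4.84 CPM in WT 4 and 0.50 or less in the others. Agrn, Rapsn and Colq, which build the adult synapse, stayed within 1.34-fold over all 8 libraries. Mbp, a basic protein of myelin, was lowest in WT 4, at 9.52 CPM against 12.4 to 16.9, and so were the Schwann cell genes Pmp22, Sox10 and Prx. WT 4 also had the highest summed level of 17 macrophage genes, 395 CPM against 147 to 318. The part of these cells in the muscle values was not tested.

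Stress-response and immediate early genes had wide ranges and were highest in WT 7 in several cases. Of 27 immediate early genes measured, 18 had a range above 2-fold, against 11.6% of all genes. The like-level limit of 2 times the spread was reached by 23, against 9.77%. Nr4a3 (chr4:48045153-48086447, plus strand), an orphan nuclear receptor induced by exercise and adrenergic signals, had the highest spread of the 25 ranked genes: 1.32 CPM in its lowest library, 7.15 at the median and 88.5 in its highest, a 66.9-fold range. WT 7 was the high library and the next was WT 3 at 15.4; WT 6, WT 8 and WT 2 were at 2.57 or below. Fos, the classical early-response factor, had another order, from 16.6 CPM in WT 6 through a median of 38.3 to 59.6 in WT 4. Its partner Jun was steadier, at 68.7 to 99.8 CPM.

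The inducible heat shock genes Hspa1a and Hspa1b, neighbours on chromosome 17 that encode near-identical copies of the chaperone HSP70, followed the order of Nr4a3 at the extremes. Their promoters are shown because both genes varied together between libraries and share this sequence: the 250 bases before each RefSeq start (GRCm38.p6, minus strand), written 5′ to 3′, with the heat shock element GAANNTTC, the core bound by heat shock factors, in capitals. The regions are chr17:34972157-34972406 for Hspa1a and chr17:34959239-34959488 for Hspa1b.
Hspa1a: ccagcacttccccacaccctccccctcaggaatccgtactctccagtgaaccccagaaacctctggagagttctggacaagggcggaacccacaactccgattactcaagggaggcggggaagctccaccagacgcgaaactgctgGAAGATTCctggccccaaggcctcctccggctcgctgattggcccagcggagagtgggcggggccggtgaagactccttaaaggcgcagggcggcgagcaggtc
Hspa1b: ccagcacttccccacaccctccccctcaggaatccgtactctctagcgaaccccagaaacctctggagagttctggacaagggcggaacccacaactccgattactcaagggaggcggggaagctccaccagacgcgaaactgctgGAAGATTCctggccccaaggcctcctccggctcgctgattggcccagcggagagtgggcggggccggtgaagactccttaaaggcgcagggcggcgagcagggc
The windows are identical at 247 of 250 positions (98.8%), and each has 1 match, beginning 104 bases before the start. GAANNTTC reads the same on both strands, and 6.78% of 27025 RefSeq promoters of the same length hold a match. Hspa1a was at 9.43 CPM in its lowest library, 22.1 at the median and 173 in its highest, and Hspa1b at 6.99, 20.8 and 161. For both genes WT 7 was highest, WT 3 and WT 1 followed at 37.0 to 53.4 CPM, and WT 6 was lowest. Because the copies share reads, their split between the genes is uncertain. In the wider chaperone list 4 of 23 heat shock genes had a range above 2-fold, against 11.6% of all genes, and 10 had at least 2 times the spread of genes of like level, against 9.77%. The constitutive Hspa8 (903 to 1347 CPM) and Hsp90ab1 (1123 to 1299 CPM) stayed within 1.49-fold. Dnajb1, a co-chaperone of HSP70, was highest in WT 3 (18.5 CPM) and lowest in WT 7 (4.88). Metallothioneins, small zinc-binding proteins, were highest in WT 3 too, Mt2 at 27.1 CPM with a median of 4.25 and a lowest value of 1.58 in WT 8.

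WT 7 was also the highest library for genes of fat use. Of 35 genes of fatty acid uptake and oxidation 33 were measured, and 8 had a range above 2-fold, against 11.6% of all genes. A spread at least 2 times that of genes of like level was found in 23, against 9.77%. Pdk4, the kinase that shuts off pyruvate oxidation in fasting, was at 187 CPM in its lowest library, 491 at the median and 1353 in its highest, WT 7. WT 6 (187) and WT 2 (205) were low. Angptl4, a fasting-induced inhibitor of lipoprotein lipase, was at 20.9 CPM in WT 7 and 1.39 to 4.13 in the others; Ucp3, the uncoupling protein of muscle mitochondria, at 293 and 74.7 to 162; Fabp3, a fatty acid carrier, at 599 and 240 to 417; and Acot2, a mitochondrial thioesterase, at 32.6 and 8.14 to 21.6. The core enzymes of beta oxidation varied less: Hadha ran from 290 to 456 CPM and Acadvl from 227 to 294, with WT 7 highest for both.

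In the slope fit on Pdk4, 3 of 12201 genes passed, all positive (0.0246%), and 0 negative. Abra, an actin-binding activator of serum response factor, ran from 94.6 CPM through a median of 136 to 201.4 and had a slope of 0.37 (SE 0.04, edgeR adjusted p = 0.0366). Hspa1a had a slope of 1.36 (SE 0.16, edgeR adjusted p = 0.0366), and Pank1, which starts coenzyme A synthesis, 0.53 (SE 0.07, edgeR adjusted p = 0.0462). No gene passed with limma on the same libraries, and the call for Hspa1a was lost without WT 7 (edgeR adjusted p = 1.00). The number of genes called was 0 without WT 7 and also 0 without WT 1, WT 2 or WT 6. The call for Hspa1a was thus lost without any of these libraries. The count was 1 without WT 4 and 5 without WT 8. The Pearson r of Hspa1a with Pdk4 was 0.92 over 8 libraries (exact permutation p = 0.000818, adjusted 0.00147) and the Spearman rho 0.90 (exact permutation p = 0.00456, adjusted 0.00770), and r was 0.67 without WT 6 and WT 7. Hspa1a too was picked because it was called in the same libraries, so these p-values add no independent support. All 32 other genes of the fatty acid list had a positive slope, against 49.8% of all genes. Without adjustment 13 passed, against 9.58% of all genes, but 0 after adjustment. Slow-fibre genes also went with Pdk4, with 15 of 15 slopes positive and 3 passing without adjustment. Fat-cell genes had 15 of 18 positive and 6 passing. The median slope was 0.20 for the slow list, 0.17 for the fat-cell list and 0.13 for the fatty acid list. The part of these other lists in the Pdk4 result was not tested.

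Clock genes separated WT 6 and WT 7 from the rest. The circadian clock is a feedback loop in which Arntl with Clock or Npas2 switches on the Per and Cry genes and the output factor Dbp through E-box sequences, and Per and Cry proteins then repress them. Of 25 clock genes 13 had a range above 2-fold and 18 at least 2 times the spread of genes of like level. For all genes these shares were 11.6% and 9.77%. Dbp was at 17.1 CPM in its lowest library, 31.7 at the median and 101 in its highest. WT 6 (101) and WT 7 (89.4) were high, WT 8 was at 51.3, and the other 5 were at 36.8 or below. Per2, a repressor of the loop, was at 17.0 and 18.8 CPM in WT 6 and WT 7 and 7.01 to 10.7 elsewhere, and Per1 at 44.4 and 58.1 and 14.2 to 27.8 elsewhere. Arntl, the activator, was lowest in the same libraries, at 9.63 and 14.7 CPM against 22.3 to 29.4, and Npas2 also, at 0.538 and 0.773 against 1.08 to 3.29. Nr1d1, a repressor of Arntl, had another order, from 82.3 CPM in WT 5 to 263 in WT 8. The kinases that set the pace, Csnk1d (54.0 to 63.3 CPM) and Csnk1e, and Cry1 (11.5 to 14.6 CPM) stayed within 1.30-fold.

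Ciart, a repressor of the clock activators, was at 0.991 CPM in its lowest library, 1.36 at the median and 8.98 in its highest, with WT 6 at 8.35 and WT 7 at 8.98 and the other 6 at 2.85 or below. Its promoter is shown beside that of Per3, a period gene with a narrower range (14.0 to 29.2 CPM, median 17.3), because they were picked, among the clock promoters searched, as those with more than 1 copy of a classical clock element; the windows of Dbp and Nr1d1 held 0 matches to either, and that of Per3 0 to the E-box. Ciart has the E-box CACGTG in capitals (chr3:95882229-95882478) and Per3 the D-box TTANGTAA, bound by Dbp and its relatives (chr4:151044666-151044915), both on the minus strand of GRCm38.p6, the 250 bases before the RefSeq start, 5′ to 3′.
Ciart: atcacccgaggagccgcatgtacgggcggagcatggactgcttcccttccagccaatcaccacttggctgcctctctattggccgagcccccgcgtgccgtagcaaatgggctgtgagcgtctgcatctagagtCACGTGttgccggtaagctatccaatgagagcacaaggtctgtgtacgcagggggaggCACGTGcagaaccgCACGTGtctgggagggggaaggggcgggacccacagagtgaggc
Per3: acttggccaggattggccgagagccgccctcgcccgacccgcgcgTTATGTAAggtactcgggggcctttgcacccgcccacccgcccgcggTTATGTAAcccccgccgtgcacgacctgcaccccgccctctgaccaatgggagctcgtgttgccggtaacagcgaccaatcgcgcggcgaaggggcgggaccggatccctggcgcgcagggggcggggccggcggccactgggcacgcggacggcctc
The E-boxes of Ciart begin 116, 58 and 44 bases before the start, and the D-boxes of Per3 at 205 and 158. The E-box reads the same on both strands; at least 1 is found in 6.05% and 2 or more in 0.448% of 27025 promoters. The D-box, searched on both strands, is found in 2.11%, and 2 or more in 0.178%. These are matches of letters and were not tested as sites.

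In the slope fit on Dbp, Ciart was the only gene of 12201 with a positive call (0.0082%), at a slope of 1.33 (SE 0.13, edgeR adjusted p = 0.0177), and Kcnf1, a silent potassium channel subunit, the only negative one (0.0082%), at -0.72 (SE 0.09, edgeR adjusted p = 0.0490). Kcnf1 ran from 3.36 CPM in WT 7 through a median of 6.64 to 13.2 in WT 5. With a minimum mean of 5 CPM, at which Ciart is no longer examined, 0 genes passed, and the count was also 0 without WT 1, WT 5, WT 7 or WT 8 and 1 without WT 2. Of the other 24 clock genes 16 had a positive slope, against 51.9% of all genes, and 15 passed without adjustment, against 7.25% of all genes. The fatty acid list had 31 of 33 positive slopes on Dbp, and 14 passed without adjustment.

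Connective tissue genes were lowest in WT 8 and highest in WT 3 as a sum, at 1785 and 3297 CPM over the matrix list. Of 24 collagen and matrix genes measured, of 25 listed, 8 had a range above 2-fold, against 11.6% of all genes. Spread at least 2 times that of genes of like level was found in 22, against 9.77%. Col1a1, the main chain of type I collagen, was at 121 CPM in its lowest library, 239 at the median and 295 in its highest, and Col3a1, of type III collagen, at 188, 380 and 517. WT 8 was lowest and WT 1 next for both, and WT 4 was highest for both. Fn1, fibronectin, was highest in WT 3 at 340 CPM against 106 to 232. In the slope fit on Col1a1, 2 of 12201 genes passed, both positive (0.0164%), and 0 negative: Col1a2, the partner chain, at a slope of 0.86 (SE 0.08) and Col6a2, of the microfibrils around fibres, at 0.66 (SE 0.06), each with an edgeR adjusted p of 0.00745. All 23 other matrix genes had a positive slope, against 49.7% of all genes, and 20 passed without adjustment, against 11.5% of all genes. Macrophage genes went with Col1a1 too, with 17 of 17 slopes positive, 16 passing without adjustment and a median slope of 1.00, and their summed level was lowest in WT 8 like that of the matrix genes; their part in the matrix result was not tested. Both calls were lost with RIN as a second covariate (adjusted p = 0.719) and without WT 1 or WT 8; WT 8 had the lowest RIN. Without WT 7, 47 genes passed, and without WT 5, 6.

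Tendon and joint-surface genes were highest in WT 3. Of 16 listed 14 were measured, 5 had a range above 2-fold and 9 at least 2 times the spread of genes of like level. Among all genes the shares were 11.6% and 9.77%. Prg4, the lubricin of joint and tendon surfaces, was at 19.8 CPM in its lowest library, 45.1 at the median and 184 in its highest. WT 3 was highest and WT 7 next at 87.2. Comp and Chad, matrix proteins of tendon and cartilage, showed the same 2 libraries on top: 63.7 and 41.4 CPM for Comp against 11.8 to 24.1 elsewhere, and 69.1 and 43.2 for Chad against 14.6 to 25.3. Tnmd, the marker of tendon cells, did not follow, at 5.02 to 7.26 CPM. The same 2 libraries held neutrophil transcripts: the 9 listed genes, 4 of which reached a mean of 1 CPM, summed to 37.2 CPM in WT 3, 17.9 in WT 7 and 0.257 to 1.41 in the others. Ngp, a protein of neutrophil precursors, was at 9.03 CPM in WT 3 and 3.20 in WT 7 with a median of 0.103, and Slc4a1, the anion exchanger of red cells and their precursors, at 2.46 and 1.55 with 0.644 or less elsewhere. Haemoglobin transcripts did not have that order: Hbb-bs, an adult beta globin, ran from 38.3 CPM in WT 8 through a median of 81.4 to 129 in WT 5. The part of attached tissue in these values was not tested.

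**Figure D5:**
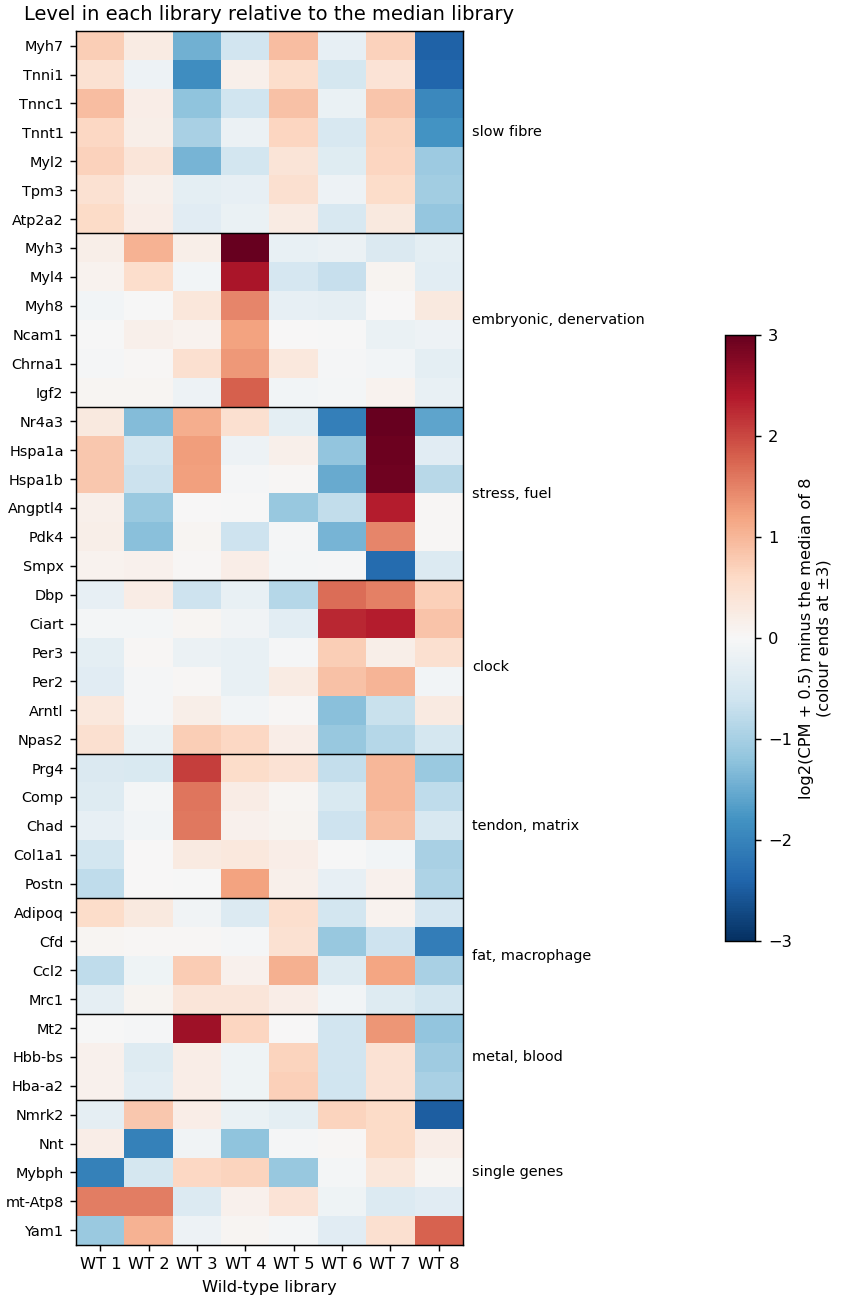
Level of 42 genes in each wild-type library as log2(CPM + 0.5) minus the median of the 8 libraries, with colour ending at ±3; rows are grouped by role. Blocks stand out for slow-fibre genes (low in WT 3 and WT 8), embryonic genes (high in WT 4), stress genes (high in WT 7), clock genes (WT 6 and WT 7) and tendon genes (high in WT 3).

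Fat-cell genes had wide ranges, with different libraries at the top for different genes. Their summed level was 3152 CPM in WT 7 and 1405 to 2200 in the others, and Car3, the abundant carbonic anhydrase of fat and slow muscle, was 1599 CPM of the sum in WT 7. Of 20 listed 18 were measured, and 14 had a range above 2-fold, against 11.6% of all genes. In 16 the spread was at least 2 times that of genes of like level, against 9.77%. Adipoq, the hormone adiponectin, was at 5.91 CPM in its lowest library, 8.97 at the median and 13.3 in its highest, with WT 1, WT 5 and WT 2 above 11 CPM. Cfd, the secreted protease adipsin, was at 12.8 CPM in WT 8, 25.1 in WT 6, 35.9 in WT 7 and 54.4 to 76.0 in the other 5. Genes of fat synthesis had wide ranges: Fasn, fatty acid synthase, from 26.9 CPM in WT 8 through a median of 74.8 to 126 in WT 2, and Scd1, stearoyl-CoA desaturase, from 74.2 in WT 8 through 138 to 297 in WT 1. Fabp4, a fatty acid carrier also found in vessel walls, was narrower at 87.3 to 131 CPM. No gene passed the slope fit on Adipoq in either direction (0% of 12201) by edgeR's quasi-likelihood test; 418 genes passed without adjustment (3.43%), 0 passed with limma, 5 with DESeq2, and 1 with edgeR without WT 5. All 17 other fat-cell genes had a positive slope, against 50.3% of all genes, and 12 passed without adjustment. Slow-fibre genes did so about as often in this fit, with 14 of 15 positive and 10 passing without adjustment; the median slope was 0.92 for the slow list and 0.77 for the fat-cell list.

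Among the other cell types of the tissue, macrophage genes had wide ranges between libraries and vessel genes narrow ones. Of 17 macrophage genes 16 had a range above 2-fold, against 11.6% of all genes. At least 2 times the spread of genes of like level was found in 14, against 9.77%. Lyz2, lysozyme, was at 35.8 CPM in its lowest library, 62.2 at the median and 121 in its highest, and Csf1r, the growth factor receptor that macrophages need, at 19.4, 30.4 and 41.4. WT 4 was highest for both, and WT 7 and WT 8 were the lowest 2. Of 16 endothelial genes 3 had at least 2 times the spread of genes of like level, against 9.77% of all genes. In the same list 0 had a range above 2-fold, with Pecam1 and Cdh5, adhesion proteins of vessel walls, at 48.6 to 62.3 and 67.7 to 85.7 CPM. Of 12 pericyte and smooth muscle genes 1 did, the channel gene Kcnj8, and of 14 genes of fibro-adipogenic progenitors 0 did, though 7 of those 14 had at least 2 times the spread of genes of like level, against 9.77% of all genes. Of 13 lymphocyte genes 12 fell below the 1 CPM limit. The exception, the immunoglobulin heavy chain Ighm, ran from 148 to 437 CPM while Cd79a and Ms4a1, genes that mark B cells, were at 0.320 CPM or less in all 8. Of 31 measured interferon and antigen presentation genes 10 had a range above 2-fold, against 11.6% of all genes, and 9 at least 2 times the spread of genes of like level, with Ifi27l2a at 2.89 CPM in WT 8 and 5.75 to 12.3 in the others.

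Genes of NAD metabolism, the subject of the wider study, varied about as often as other genes in the wild type. Of 25 listed 22 were measured; 2 of the 22 had a range above 2-fold, against 11.6% of all genes, and 2 had at least 2 times the spread of genes of like level, against 9.77%. Nampt, which makes nicotinamide mononucleotide, was at 125 CPM in its lowest library, 140 at the median and 160 in its highest, and the sirtuins Sirt1, Sirt2 and Sirt3 stayed within 1.26-fold. Nmrk2 (chr10:81198170-81202051, minus strand), the muscle nicotinamide riboside kinase, was at 20.3 CPM in its lowest library, 115 at the median and 199 in its highest. WT 8 alone was low, and the other 7 were at 93.4 or above. Nnt (chr13:119335448-119408997, minus strand), the proton-driven transhydrogenase of the inner mitochondrial membrane, was at 23.1 CPM in WT 2, 41.1 in WT 4 and 88.6 to 142 in the other 6. The atrophy ubiquitin ligases Fbxo32 (247 to 679 CPM) and Trim63 (121 to 256 CPM) were both lowest in WT 3.

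A few other transcripts also had wide ranges. Ribosomal RNA related transcripts and the RNA of the signal recognition particle, kinds of RNA that lack a poly(A) tail, were highest in WT 8 and lowest in WT 1: Yam1 (chr17:39846958-39848788, plus strand, the higher of 2 genes listed under that symbol), which overlaps the ribosomal RNA related sequence Rn18s-rs5, was at 1341 CPM in its lowest library, 2892 at the median and 9916 in its highest, and Rn7s1, a signal recognition particle RNA, at 8.45, 15.0 and 99.1. Yam1 and Rn18s-rs5 lie on opposite strands, and since the strand setting of the counting is unknown here, their split is uncertain. WT 2 was second for these transcripts, at 5963 CPM for Yam1 and 61.1 for Rn7s1. WT 8 had the lowest RIN, 8.2, and WT 2 a RIN of 8.6; the part of RNA integrity in these levels was not tested. Of the 13 mitochondrially encoded mRNAs 1 had a range above 2-fold: mt-Atp8, a short subunit of the ATP synthase, was at 1975 and 1976 CPM in WT 1 and WT 2 and 519 to 913 in the others. It overlaps mt-Atp6 on the same strand, so reads of the overlap may be split between them, and mt-Atp6 was also highest in WT 1 and WT 2, at 11687 and 10745 CPM against 7543 to 9825. The major urinary proteins Mup10 and Mup18, members of a family of near-identical genes, were low in WT 6, WT 7 and WT 8, at 0.662 CPM or less, and at 1.84 to 9.06 in WT 1 to WT 5.

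Counted by library, WT 7 had the most genes set apart. Of 8910 genes with a mean of at least 5 CPM, 57 were more than 2-fold above the median of the other libraries in WT 7. In WT 6 there were 3, with the remaining libraries between. More than 2-fold below were 41 genes in WT 8, and 5 each in WT 1, WT 2 and WT 4. Of the 25 genes with the highest spread, 7 had their highest library in WT 7 and 7 their lowest in WT 8. The SD of 8 of these 25 dropped by over 1.5 times when 1 library was left out: Nr4a3, Hspa1a and Angptl4 without WT 7, Myh3 and Myl4 without WT 4, Nmrk2 without WT 8, Chac1 without WT 3 and Nnt without WT 2.

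The same genes were then read in the 8 knockout libraries, whose values played no part in ranking them. Of the 25 genes of highest spread, 24 had at least 2 times the spread of genes of like level among the knockout libraries too, the exception being Mid1. Among all 12202 genes 1197 reached that limit in the knockout. A range above 2-fold was found there in 22 of the 25, against 11.7% of all genes. Of the 15 steadiest genes 0 had a range above 2-fold in the knockout. These genes were taken from 50 CPM up. In the wild type the share with such a range was 4.06% at 10 to 100 CPM and 4.72% at 100 to 1000 CPM. A count of 0 among 15 is near those shares. Over all 12202 genes, 796 passed the like-level limit in both groups, 66.8% of the 1192 wild-type genes and 66.5% of the 1197 knockout genes. The wild-type limit was passed by 9.77% of all genes. For Myh7 the range was 10.2-fold in the wild type and 1.94-fold in the knockout, for Pdk4 7.24-fold and 7.39-fold, and for Dbp 5.93-fold and 5.58-fold; these differences between groups were not tested.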

How the data were processed

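Polyadenylated RNA of quadriceps was sequenced as 52-base read pairs. Per the submitters' processing notes, the authors used bcl2fastq 4.0.3, STAR and Salmon with GRCm38. No version of either of the last 2 tools, no gene annotation and no strandedness of the counting is stated in the labels or headers used here. The authors deposited 1 table of estimated counts per gene for 16 libraries, of which 11.1% of values were not whole; estimated counts were rounded before edgeR (4.0.16), limma (3.58.1) and DESeq2 (1.42.0) in R 4.3.3, and scaled to CPM by TMM within the wild type. No pair of libraries agreed within counting noise. Per-length levels used the longest annotated transcript of GENCODE M21, with 99.6% of the examined genes matched. Levels were logged as log2(CPM + 0.5), the spread of genes of like level was the median SD of the 100 genes ranked on each side, and means of at least 1 CPM were required. The 5 slope fits (Myh7, Adipoq, Col1a1, Dbp, Pdk4) used edgeR's quasi-likelihood test with Benjamini-Hochberg adjustment at 0.05. Correlations were computed in scipy 1.17.1 over all 40320 permutations, and a gene was picked for them because it was called or nearest to the slope gene, so their p-values are not independent of that choice. On data simulated over 12126 genes a true slope of 0.5 on Myh7 was recovered for 100% of the 66 genes given it, and over 12127 genes one on Col1a1 for 22.7%. Slopes were planted only in genes with a mean of at least 5 CPM, and genes were drawn independently. The simulated data gave 194 calls on Myh7 and 78 on Col1a1, against 3 and 2 in the real data. With so many calls the adjusted limit was easier to reach than in the real data. The shares do not show how many real slopes were missed. Tnni1 (slope 0.91, edgeR adjusted p = 0.144) and Myl2 (slope 0.63, edgeR adjusted p = 0.136) were not called on Myh7.

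The libraries, taken by title, the 40 gene lists (801 symbols, 1 unmatched) and the tests were chosen with earlier results of these data known. The slope genes Myh7, Dbp and Pdk4 are themselves among the 25 genes of highest spread. The list shares and the slope fits are thus descriptions of these libraries. Named genes were the 20 highest by CPM and per length, the 25 of highest SD from 5 CPM and the 15 of lowest SD from 50 CPM without gene models, the 2 highest and the 2 most variable of each list, up to 6 called genes per direction and the 3 nearest of each fit, and every reference, sex-linked and myosin heavy chain gene; any other gene was named after its values were seen. Alternatives covered scaling, filters, pseudocount, thinning, transcript length, test, RIN as a covariate, and each library left out. Promoter sequences are from RefSeq (GRCm38.p6). Some genes of the lists are not reported here.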

Additional observations from a re-analysis of the deposited data

Results flagged for a closer look

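In 8 libraries, the highest or lowest value was checked for a gap to its neighbour that is wide against the whole range of the 8, on the log2 scale; chance flags about 1 in 20 groups. Of 145 genes, 36 summed lists and 5 library measures checked, 23 were flagged; over all 8910 genes with a mean of at least 5 CPM the share was 6.58%. In WT 4 the highest values of Myh3 (99.4 CPM), Myh8 (94.2), Myl4 (24.6), Tnnt2 (10.6), Igf2 (61.4), Tmem8c (8.44), Ncam1 (17.4), Musk (19.7), Chrng (4.84) and Hsp90ab1 (1299) stood apart, as did the summed level of 24 neuromuscular junction and denervation genes (429 CPM) and, on the low side, Prx (3.63 CPM), a Schwann cell gene. In WT 7, Angptl4 (20.9 CPM), Pank1 (28.0) and the Y-linked Ddx3y (47.5) stood apart on the high side, and Smpx (33.9) and the summed level of 12 pericyte and smooth muscle genes (3640 CPM) on the low side. In WT 8, Sirt2 (106 CPM) was set apart as high, Nmrk2 (20.3 CPM) as low, and the RIN of 8.2 as low. WT 3 was set apart by low Pax7 (2.10 CPM) and Pfkfb3 (126 CPM) and by the 59 genes needed to reach 50% of its counts. No cause was tested for these values.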

How the results depend on the processing

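Under other scalings, pseudocounts, thinning and each library left out, 1123 to 1618 genes had a range above 2-fold, 1075 to 1263 had at least 2 times the spread of genes of like level, and the median SD of log2(CPM + 0.5) was 0.131 to 0.148. The first count was 470 of 8910 genes with a mean of at least 5 CPM and 4891 of 16076 with a mean of at least 0.1 CPM, by construction fewer and more genes; with these filters the second count was 972 and 1371 and the median SD 0.117 and 0.160. Without mitochondrially encoded genes the 10, 100 and 1000 highest genes held 26.0%, 50.7% and 74.3% and 93.8 genes held 50%; per kilobase they held 30.6%, 68.5% and 85.6%, and 21.9 genes held 50%. With DESeq2 in place of edgeR, 8 genes were called on Myh7, 5 on Adipoq, 171 on Col1a1, 45 on Dbp and 65 on Pdk4; DESeq2 gave no adjusted p for 5204 genes on Myh7 and 474 on Pdk4. With RIN as a covariate 5 genes were called on Myh7, 0 on Col1a1 and 1 on Dbp. With a mean of at least 5 CPM, 4 were called on Col1a1 and 0 on Dbp; with no filter 8 on Pdk4, and with limma 0 on Pdk4. Leaving out 1 library gave 3 to 6 genes for Myh7, 0 to 1 for Adipoq, 0 to 47 for Col1a1, 0 to 3 for Dbp and 0 to 5 for Pdk4. The cause of these shifts was not tested. No value changed direction under any alternative run. The depth limits genes of 1 to 10 CPM, and counting error covers none of the differences between tissue pieces. No paired analysis was possible because only wild-type libraries entered the fits. The knockout libraries were read only for the spread of the same genes, and no difference between the groups was tested.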

Other observations

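Genes of the glucocorticoid and FOXO response, in a list of 30 atrophy genes, often had wide ranges: 14 had a range above 2-fold, against 11.6% of all genes, and 20 at least 2 times the spread of genes of like level, against 9.77%. The satellite cell and myogenic list had 11 of 14 genes measured, of which 4 had a range above 2-fold. Of 17 replication-dependent histone genes 7 were measured, 3 had a range above 2-fold and 2 passed the like-level limit. Of 12 proliferation genes 4 were measured, 2 had such a range and 1 passed the like-level limit. Mki67, the marker of cycling cells, was at 0.271 CPM in WT 8 and 2.42 in WT 4; among all genes at 1 to 10 CPM, 21.3% had a range above 2-fold.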
